A study of Mus musculus with 100 samples.

Results

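The genes described here are 10 genes whose proteins modify, fold or trim collagen: *P4ha1*, *P4ha2*, *P4ha3*, *Plod1*, *Plod2*, *Serpinh1*, *Fkbp10*, *Pcolce*, *Bmp1* and *Adamts2*. They were taken from the count table by symbol, and all 10 were found among its 17310 genes. Gene expression was profiled by RNA-seq of poly(A) RNA in whole mouse knee joints with small traces of soft tissue. The mice were of 3 inbred strains that the labels rank by their susceptibility to post-traumatic osteoarthritis (PTOA), MRL/MpJ (not susceptible), C57BL/6 (moderately susceptible) and STR/ort (highly susceptible). The right knee of 10-week-old mice was injured by a single tibial compression load, which ruptures the anterior cruciate ligament (ACL), and the mice then received buprenorphine. The uninjured contralateral knee of injured mice served as control, so an effect of the injury on both joints would not be seen in that comparison.

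The 100 libraries formed 21 groups. The 0-day joints, taken before any injury, gave 4 libraries per strain. Post-injury, both knees were taken at 1-day, at 1-week or at 2-weeks, with 5 libraries per group, except the uninjured MRL/MpJ and STR/ort joints at 1-week with 4 each. The libraries held 6182016 to 20986027 counts in genes, and *P4ha3*, the rarest of the 10 genes, had 6 to 1794 counts per library. The labels place the 70 libraries of 0-day, 1-day and 1-week in experimental batch 1 and the 30 libraries of 2-weeks in batch 2, so time and batch cannot be told apart for 2-weeks, and levels were compared across times only within batch 1. Levels are CPM, the count of a gene relative to the total count of its library, scaled by edgeR's TMM factors and given as mean ± SD over libraries. Differences are log2 fold changes ± standard error (SE) from edgeR's quasi-likelihood test, with p adjusted by Benjamini-Hochberg over the 17310 genes, and a gene was called up- or down-regulated at an adjusted p below 0.05 and a fold change above 1.5. The joints were profiled in bulk, so fewer cells of a type and less RNA per cell cannot be told apart.

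Procollagen chains are modified and folded inside the endoplasmic reticulum before they assemble into fibrils outside the cell. Prolyl 4-hydroxylases, tetramers of a catalytic alpha subunit (*P4ha1*, *P4ha2* or *P4ha3*) and a beta subunit (*P4hb*), hydroxylate proline residues, which makes the triple helix stable at body temperature, and lysyl hydroxylases (*Plod1* and *Plod2*) hydroxylate lysine residues that later carry cross-links. *Serpinh1* encodes HSP47, a collagen-specific chaperone that binds the folded triple helix, and *Fkbp10* encodes FKBP65, a prolyl isomerase needed for lysine hydroxylation in the telopeptides by the *Plod2* enzyme. After secretion, *Adamts2* cleaves the amino-terminal propeptide and *Bmp1* the carboxy-terminal propeptide of fibrillar procollagens, and *Pcolce* enhances the activity of *Bmp1*. In the joint these proteins are made by fibroblasts of synovium, ligament and capsule, by osteoblasts and by chondrocytes, and loss of several of them causes brittle-bone or connective-tissue disease.

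Promoters of 7 of the 10 genes were found in the RefSeq promoter table (GRCm38.p6), and the 250 bases before the start it gives were searched on both strands for 4 motifs. The windows of *P4ha1*, *P4ha3* and *Pcolce* reach into the gene spans given below. The GC box GGGCGG, the binding motif of Sp1, was found in 7 of 7, against 32.7% of the 32851 promoter windows of all genes. The core ACGTG of the hypoxia response element was found in 3 of 7 (*P4ha1*, *P4ha2* and *Serpinh1*), against 16.6% of all windows. The CCAAT box (33.8% of all windows) and the heat shock element core GAANNTTC (6.69% of all windows) were found in none of the 7. The GC content of the 7 windows was 58.8 to 78%, against a median of 52.4% over all windows. Windows are shown for *P4ha3*, whose level changed most with injury, for *Serpinh1*, the most abundant of the genes, and for *P4ha1* and *Adamts2*, neither of which was called in any comparison of injured with contralateral joints of all libraries. They span chr7:100285270-100285519 (+), chr7:99353240-99353489 (-), chr10:59323046-59323295 (+) and chr11:50601835-50602084 (+) in that order, are written 5′ to 3′ towards the gene, and have GC boxes and hypoxia cores on either strand in capitals.
P4ha3: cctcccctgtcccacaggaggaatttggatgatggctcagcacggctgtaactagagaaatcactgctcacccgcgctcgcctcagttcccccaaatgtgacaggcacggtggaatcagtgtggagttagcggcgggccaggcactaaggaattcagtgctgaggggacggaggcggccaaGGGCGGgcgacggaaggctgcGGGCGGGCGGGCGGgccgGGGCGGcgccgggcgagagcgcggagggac
Serpinh1: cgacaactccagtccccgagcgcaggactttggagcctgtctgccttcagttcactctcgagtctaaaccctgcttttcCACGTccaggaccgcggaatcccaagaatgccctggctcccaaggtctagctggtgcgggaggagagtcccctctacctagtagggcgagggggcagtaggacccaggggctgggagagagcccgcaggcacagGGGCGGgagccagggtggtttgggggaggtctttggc
P4ha1: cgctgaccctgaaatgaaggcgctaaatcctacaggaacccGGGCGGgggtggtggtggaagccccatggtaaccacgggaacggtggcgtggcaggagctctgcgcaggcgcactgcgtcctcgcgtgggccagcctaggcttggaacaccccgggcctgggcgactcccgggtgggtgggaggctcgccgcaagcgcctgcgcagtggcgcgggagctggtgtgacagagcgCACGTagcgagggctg
Adamts2: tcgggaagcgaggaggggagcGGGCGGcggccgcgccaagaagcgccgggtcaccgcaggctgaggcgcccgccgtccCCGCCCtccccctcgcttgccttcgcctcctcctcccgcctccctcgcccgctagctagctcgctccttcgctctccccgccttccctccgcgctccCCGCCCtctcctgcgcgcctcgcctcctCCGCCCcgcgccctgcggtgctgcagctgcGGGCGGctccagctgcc
The windows differ in their motifs. *P4ha3* and *Adamts2* hold 5 GC boxes each, which overlap in *P4ha3*, and *Serpinh1* and *P4ha1* hold 1 GC box and 1 hypoxia core each.

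Before injury, the 10 genes differed widely in level. Per kb of exon, *Serpinh1* (chr7:99345375-99353239, minus strand) ranked first in 21 of 21 groups, with 73.3 CPM per kb in MRL/MpJ, 139 in C57BL/6 and 112 in STR/ort at 0-day. *P4ha3* (chr7:100285489-100319701, plus strand) ranked last in 14 of 21 groups, with 0.92 CPM per kb in MRL/MpJ, 4.31 in C57BL/6 and 3.99 in STR/ort at 0-day. It stood at rank 6 in the injured C57BL/6 and STR/ort joints at 1-week. *P4ha1*, *Plod2*, *Fkbp10* and *Pcolce* took ranks 2 to 5 in every group, and *Plod1* and *Bmp1* ranks 6 to 8, as counted per kb.

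**Figure D1:**
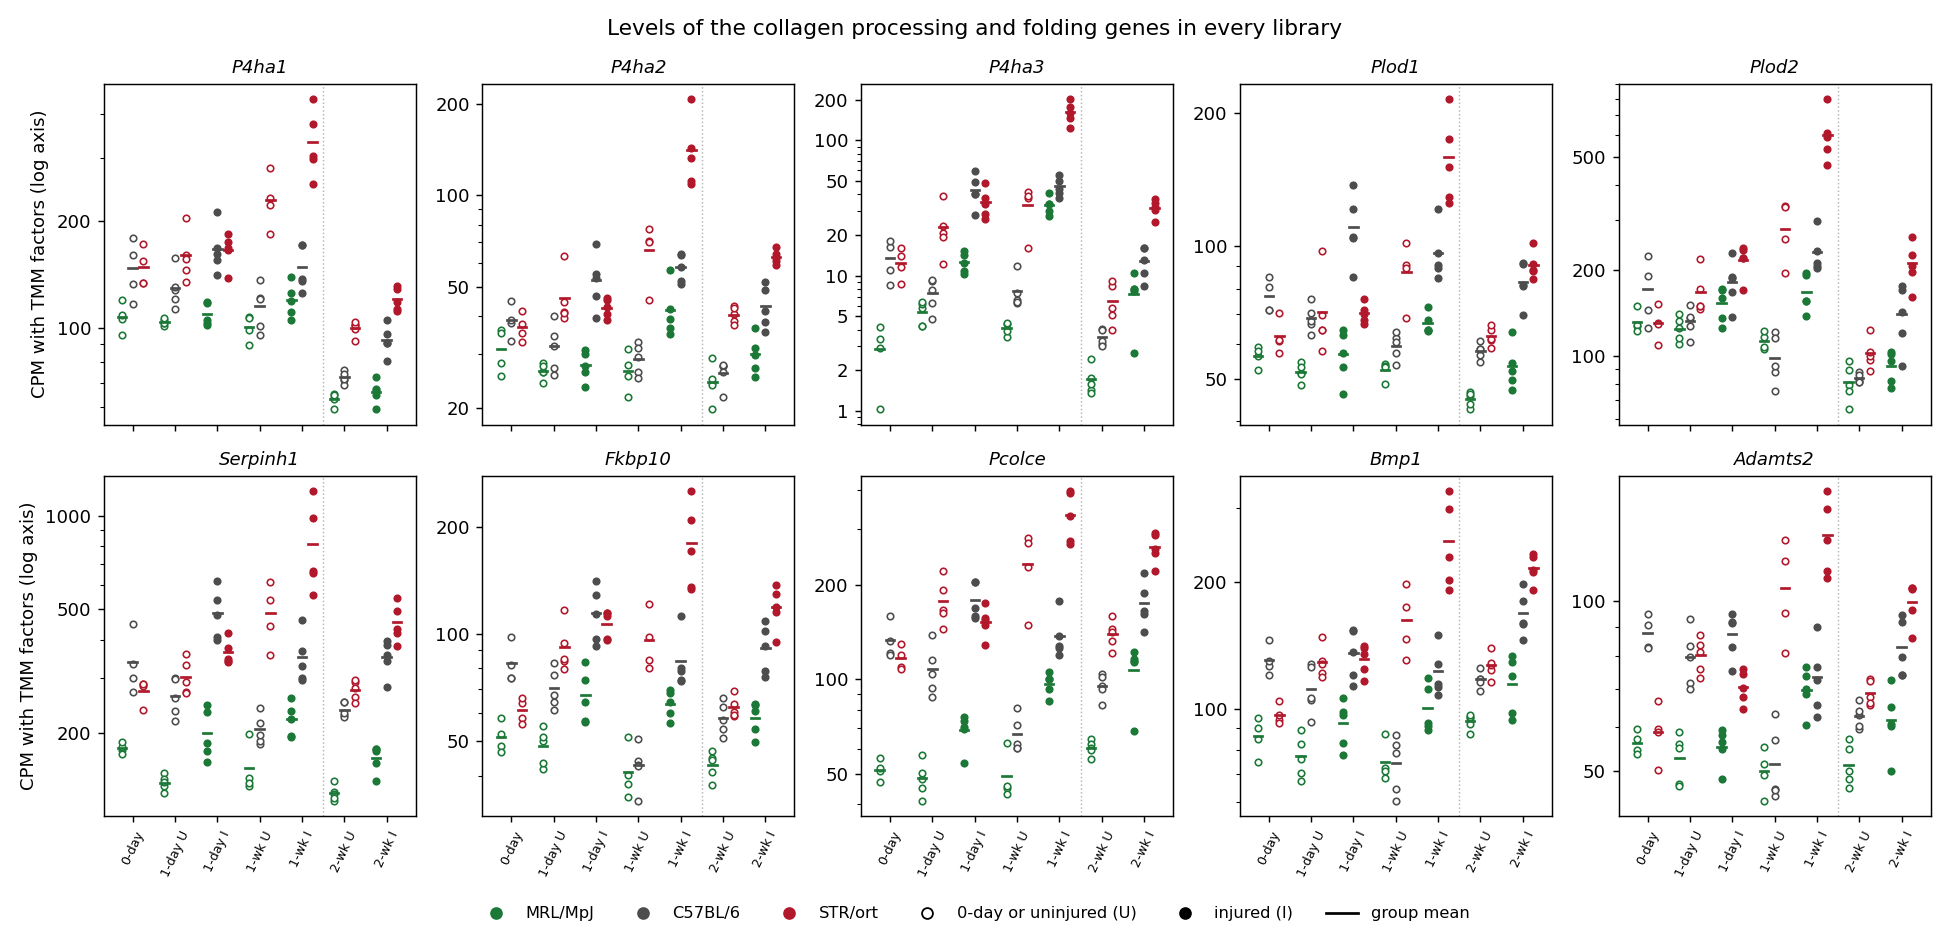
Level of each of the 10 genes in every library (CPM with TMM factors, log axis) by time, with open symbols for 0-day and uninjured contralateral joints (U), filled symbols for injured joints (I), a bar at each group mean and 1 colour per strain. The dotted line sets off the 2-weeks libraries of batch 2. The injured STR/ort joints at 1-week have the highest mean of the batch 1 groups in every panel, and P4ha3 spans from 1.03 to 202 CPM.

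At 0-day, 6 of the 10 genes were higher in C57BL/6 than in MRL/MpJ joints, against 9.64% of all genes called higher in that comparison. *P4ha3* had 3.39, 4.19, 2.93 and 1.03 CPM in MRL/MpJ, 16.4, 10.9, 8.58 and 18.2 CPM in C57BL/6 and 15.9, 8.65, 14.0 and 11.5 CPM in STR/ort. The MRL/MpJ libraries all lay below those of the other strains, which overlapped each other. C57BL/6 exceeded MRL/MpJ by 2.18 ± 0.29 on the log2 scale (adjusted p = 1.25e-05) and STR/ort exceeded MRL/MpJ by 2.05 ± 0.30 (adjusted p = 3.15e-05). *Pcolce* showed the same order with less spread, at 47.1 to 56.2 CPM in MRL/MpJ, 119 to 159 in C57BL/6 and 108 to 130 in STR/ort, which gave log2 differences from MRL/MpJ of 1.40 ± 0.10 (adjusted p = 3.61e-09) and 1.18 ± 0.10 (adjusted p = 3.07e-08). *Serpinh1* stood at 179 ± 6.79 CPM in MRL/MpJ, 339 ± 77.8 in C57BL/6 and 274 ± 24.3 in STR/ort (n = 4 each), and was called higher in both than in MRL/MpJ. The other 3 genes called between C57BL/6 and MRL/MpJ were *Fkbp10* (0.73 ± 0.09), *Bmp1* (0.64 ± 0.08) and *Adamts2* (0.69 ± 0.08). The *Bmp1* call was lost without MRL/MpJ replicate 3 or C57BL/6 replicate 4 (0.58 each).

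Between STR/ort and MRL/MpJ at 0-day, 3 genes were called higher, *P4ha3*, *Serpinh1* and *Pcolce*, against 8.34% of all genes. With 2 RUVg factors (factors of unwanted variation estimated from housekeeping genes) *Serpinh1* was not called in that comparison (0.37). Between STR/ort and C57BL/6 only *Adamts2*, the amino-propeptidase, was called, lower in STR/ort by a log2 difference of -0.62 ± 0.08 (adjusted p = 1.26e-05), against 5.99% of all genes called lower. Its level was 58.7 ± 6.66 CPM in STR/ort and 88.0 ± 6.02 in C57BL/6 (n = 4 each), and the libraries of the 2 strains did not overlap. The *Adamts2* difference lay just beyond the 1.5-fold threshold and was not called with DESeq2 or RLE size factors (-0.58 with either), when these groups were fitted alone (-0.57), or without MRL/MpJ replicate 2, C57BL/6 replicate 4 or STR/ort replicate 4. With RUVg it was -0.50 with 1 factor and -0.29 with 2 (adjusted p = 0.299), also not called. With 2 RUVg factors *Pcolce* was the only one of the 6 genes still called between C57BL/6 and MRL/MpJ (1.00, adjusted p = 0.0251), the *Serpinh1* difference was -0.081 (adjusted p = 0.92) and *Plod2* was called lower (-0.94, adjusted p = 0.021). The 6 fibroblast markers were 6 of 6 higher in C57BL/6 than in MRL/MpJ, with summed levels of 2262 to 3212 against 1158 to 1361 CPM, and 4 of 6 higher in STR/ort, at 2222 to 2982 CPM. The 8 fast muscle markers were 8 of 8 lower in C57BL/6 than in MRL/MpJ, with summed levels of 32977 to 52940 against 71345 to 87385 CPM. The part of these cell types in the strain differences was not tested.

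After injury, 8 of the 10 genes rose in at least 1 comparison and none was called down-regulated. Over the 9 comparisons of injured with contralateral joints (3 strains at 3 times), 41 of 90 values were called, all of them up-regulated, and 86 of 90 log2 fold changes were positive. *P4ha3* was called in 8 of 9 comparisons, *P4ha2*, *Fkbp10* and *Pcolce* in 6, *Plod2* in 5, *Serpinh1* in 4, *Plod1* and *Bmp1* in 3, and *P4ha1* and *Adamts2* in 0. At 1-day the count of genes called was 1 of 10 in MRL/MpJ (1.53% of all genes were called up-regulated), 6 of 10 in C57BL/6 (4.26%) and 0 of 10 in STR/ort (1.61%). In STR/ort at 1-day, 3 genes had an unadjusted p under 0.05 and DESeq2 called 0. At 1-week the counts were 5 of 10 in MRL/MpJ (2.93%), 8 of 10 in C57BL/6 (4.75%) and 7 of 10 in STR/ort (5.67%). At 2-weeks they were 2 of 10 in MRL/MpJ (1.14%), 5 of 10 in C57BL/6 (2.88%) and 7 of 10 in STR/ort (4.34%). All injured libraries lay above all contralateral libraries for 10 of 10 genes in C57BL/6 and in STR/ort at 2-weeks, although 5 and 3 of these genes were below the 1.5-fold threshold. The share of all genes set apart in this way was not counted. Single libraries moved the counts that were low: at 1-day the MRL/MpJ count was 3 without injured replicate 3 and 2 without injured replicate 5, and the STR/ort count was 1 (*P4ha3*) without injured replicate 3 or contralateral replicate 2. The 1-week MRL/MpJ count was 2 without contralateral replicate 2 and 3 without injured or contralateral replicate 3.

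**Figure D2:**
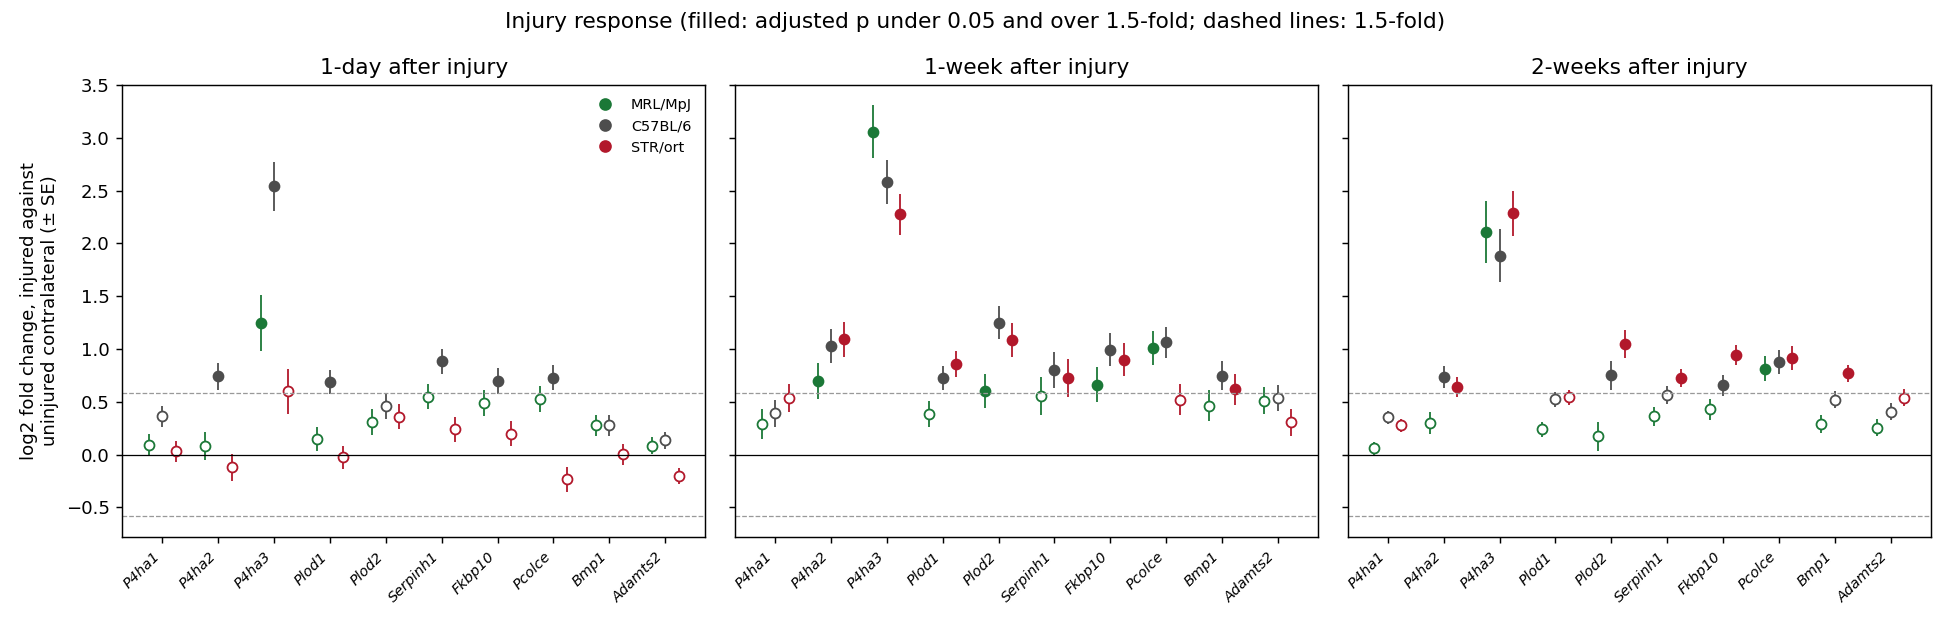
Log2 fold change ± SE of injured against uninjured contralateral joints for the 10 genes, with 1 panel per time and 1 colour per strain; filled points were called and dashed lines mark 1.5-fold. P4ha3 lies above the other genes in all 9 comparisons, between 0.60 and 3.06, and the STR/ort points of 1-day run from -0.23 to 0.60 with none called.

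Among the prolyl 4-hydroxylase subunits, *P4ha3* rose most and *P4ha1* was not called in any strain. At 1-week, the injured MRL/MpJ joints had 29.9, 34.0, 41.2, 33.9 and 27.7 CPM of *P4ha3* and the contralateral joints 3.51, 4.43, 3.93 and 4.48 CPM, which did not overlap and gave a log2 fold change of 3.06 ± 0.25 (8.32-fold, adjusted p = 2.58e-09). In C57BL/6 the injured joints had 41.0, 50.3, 37.7, 44.0 and 55.7 CPM and the contralateral joints 6.24, 6.57, 11.8, 7.45 and 6.39 CPM, a log2 fold change of 2.58 ± 0.20 (5.98-fold). In STR/ort the injured joints had 202, 177, 160, 124 and 145 CPM and the contralateral joints 41.8, 37.5, 16.1 and 38.8 CPM, a log2 fold change of 2.28 ± 0.19 (4.85-fold). The fold changes ran in the reverse order of the levels: the contralateral STR/ort joints had as much *P4ha3* (33.6 ± 11.8 CPM) as the injured MRL/MpJ joints (33.3 ± 5.15 CPM). The strain differences of the fold change at 1-week did not pass the test, the largest being STR/ort against MRL/MpJ at -0.78 ± 0.32 (adjusted p = 0.269).

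At 1-day, *P4ha3* in C57BL/6 had 49.0, 28.1, 40.2, 59.2 and 40.2 CPM in injured and 4.83, 9.11, 7.85, 6.34 and 9.26 CPM in contralateral joints, a log2 fold change of 2.54 ± 0.23 (adjusted p = 2.38e-09). In MRL/MpJ it rose from 5.38 ± 1.05 to 12.6 ± 2.06 CPM (n = 5 each), by 1.25 ± 0.26 (adjusted p = 0.00349). In STR/ort the injured joints had 28.8, 37.8, 26.2, 34.0 and 48.3 CPM and the contralateral joints 12.2, 39.0, 20.6, 23.4 and 19.4 CPM, and the difference of 0.60 ± 0.21 was not called (adjusted p = 0.0684). The STR/ort groups overlapped only through contralateral replicate 2, the highest contralateral library in *P4ha3*. At 2-weeks *P4ha3* was called in all 3 strains, from 1.71 ± 0.43 to 7.34 ± 2.84 CPM in MRL/MpJ (2.11 ± 0.30), from 3.50 ± 0.48 to 12.8 ± 3.40 CPM in C57BL/6 (1.88 ± 0.25) and from 6.47 ± 2.20 to 31.8 ± 4.57 CPM in STR/ort (2.28 ± 0.21). Injured MRL/MpJ replicate 3, at 2.66 CPM, was the lowest injured library and still lay above the 5 contralateral ones.

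The second alpha subunit, *P4ha2* (chr11:54100924-54131668, plus strand), rose in C57BL/6 at every time, by 0.74 ± 0.13 at 1-day, 1.03 ± 0.16 at 1-week and 0.73 ± 0.10 at 2-weeks. In STR/ort at 1-week its injured joints had 207, 144, 112, 109 and 132 CPM and its contralateral joints 70.6, 70.4, 45.2 and 77.7 CPM, a log2 fold change of 1.09 ± 0.16 (adjusted p = 1.14e-05). The groups did not overlap, and injured replicate 1 was the highest library. In MRL/MpJ it was called at 1-week alone (0.70 ± 0.17, adjusted p = 0.0119), and this call was lost without injured replicate 3 (0.56) or contralateral replicate 2 (0.62). *P4ha1* (chr10:59323197-59373304, plus strand), the alpha subunit found in most cell types, ranged from 0.03 to 0.54 over the 9 comparisons. Its largest value, in STR/ort at 1-week, came from 334 ± 73.0 CPM in injured and 229 ± 39.9 CPM in contralateral joints and had an adjusted p of 0.00476, under the threshold of the test but below 1.5-fold. It was called without injured replicate 4 (0.62) or contralateral replicate 1 (0.65). *P4ha1* and *P4ha3* shared the direction of change, and its size was smaller in *P4ha1* in all 9 comparisons.

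Of the lysyl hydroxylases, *Plod2* (chr9:92539636-92608428, plus strand), the form that acts on telopeptide lysines, was called in 5 comparisons and *Plod1* (chr4:147909753-147936776, minus strand), which acts on helical lysines, in 3. *Plod2* had 799, 605, 534, 471 and 589 CPM in injured and 336, 257, 196 and 334 CPM in contralateral STR/ort joints at 1-week (1.09 ± 0.16, adjusted p = 9.93e-06). In C57BL/6 at 1-week it had 212, 234, 203, 208 and 299 CPM in injured and 88.2, 92.6, 122, 75.6 and 116 CPM in contralateral joints (1.25 ± 0.15, adjusted p = 5.79e-07). Neither pair of groups overlapped, and these were the largest *Plod2* changes. In MRL/MpJ at 1-week *Plod2* had 139, 156, 192, 196 and 156 CPM in injured and 106, 108, 117 and 122 CPM in contralateral joints, which did not overlap, and was called (0.60 ± 0.16, adjusted p = 0.023). That call was lost without any of 5 single libraries, injured replicates 3 and 4 and contralateral replicates 1 to 3 (0.54 to 0.61), with TMM factors computed without the muscle marker genes (0.58) and with 2 RUVg factors (0.47, adjusted p = 0.214). *Plod2* was not called at 1-day in any strain (0.31 ± 0.12 in MRL/MpJ, 0.46 ± 0.12 in C57BL/6 and 0.36 ± 0.12 in STR/ort). At 2-weeks it was called in C57BL/6 (0.75 ± 0.14) and STR/ort (1.05 ± 0.13), and stood at 92.0 ± 11.9 against 81.1 ± 12.2 CPM in MRL/MpJ, where the groups overlapped (0.17 ± 0.14, adjusted p = 0.983).

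*Plod1* was called at 1-day in C57BL/6 (0.69 ± 0.11), where injured joints had 84.9 to 137 CPM and contralateral joints 62.8 to 75.8 CPM. It was also called at 1-week in C57BL/6 (0.72 ± 0.11) and STR/ort (0.86 ± 0.12). At 2-weeks its groups did not overlap in any strain, yet the changes of 0.24 ± 0.07 in MRL/MpJ, 0.52 ± 0.07 in C57BL/6 and 0.54 ± 0.07 in STR/ort were below 1.5-fold. In MRL/MpJ *Plod1* was not called at any time.

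The chaperones *Serpinh1* and *Fkbp10* (chr11:100415694-100424840, plus strand) had the most similar response of any pair among the 10 genes, with a root mean square difference of 0.14 over their 9 log2 fold changes. *Serpinh1* had 1198, 983, 653, 554 and 662 CPM in injured and 613, 534, 357 and 441 CPM in contralateral STR/ort joints at 1-week. These groups overlapped, because injured replicates 1 and 2 stood far above the other 3 injured libraries and the lowest injured library lay below the highest contralateral one, and the log2 fold change was 0.73 ± 0.18 (adjusted p = 0.00377). Without injured replicate 1 it was 0.55 and not called. In C57BL/6 *Serpinh1* rose at 1-day from 264 ± 37.1 to 488 ± 91.6 CPM (0.89 ± 0.12, adjusted p = 1.96e-06) and at 1-week from 206 ± 22.9 to 352 ± 68.7 CPM (0.80 ± 0.17). At 2-weeks it was called in STR/ort alone, from 276 ± 19.2 to 454 ± 64.2 CPM (0.72 ± 0.09), while C57BL/6 stood just under the fold threshold (0.56 ± 0.09, adjusted p = 2.97e-05). The C57BL/6 value was called when scaled by the housekeeping genes (0.60), with 1 or 2 RUVg factors (0.59 and 0.60) and without injured replicate 2 (0.63). In MRL/MpJ it was not called at any time, with log2 fold changes of 0.55 ± 0.12 at 1-day, 0.55 ± 0.18 at 1-week and 0.36 ± 0.09 at 2-weeks. The 1-day value was called without injured replicate 3 or 5 (0.59 and 0.61), and the 1-week value without contralateral replicate 4 (0.70) and when scaled by the housekeeping genes (0.59).

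*Fkbp10* was called in C57BL/6 at all 3 times (0.70 ± 0.12, 0.99 ± 0.15 and 0.65 ± 0.10), in STR/ort at 1-week and 2-weeks (0.90 ± 0.16 and 0.94 ± 0.10) and in MRL/MpJ at 1-week (0.66 ± 0.17). The MRL/MpJ call was lost with 1 RUVg factor (0.56) and without contralateral replicate 2 or 3 (0.63 and 0.59). In MRL/MpJ at 1-week the injured joints had 56.2, 60.0, 64.3, 69.5 and 68.4 CPM and the contralateral joints 40.3, 37.9, 34.9 and 51.5 CPM, with no overlap. Its injured and contralateral libraries were apart in 8 of the 9 comparisons, as those of *P4ha3* were, the exception for both being STR/ort at 1-day. *Fkbp10* changed less than *P4ha3* in each of the 9 comparisons.

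Of the secreted proteins, *Pcolce* (chr5:137605105-137611522, minus strand) was called in every strain at 2 or more comparisons except STR/ort, where it was called at 2-weeks alone. In MRL/MpJ at 1-week it had 93.2, 85.5, 99.9, 100.4 and 105 CPM in injured and 45.1, 43.1, 45.8 and 62.8 CPM in contralateral joints (1.01 ± 0.16, adjusted p = 5.4e-05). These groups did not overlap, and the change was close to that of C57BL/6 (1.06 ± 0.14). In STR/ort at 1-week the injured joints had 393, 397, 276, 270 and 332 CPM and the contralateral joints 281, 271, 149 and 227 CPM, which overlapped, and the change of 0.52 ± 0.15 was below 1.5-fold (adjusted p = 0.0118). It was called without injured replicate 4 (0.59) or contralateral replicate 1 or 2 (0.63 and 0.60). At 2-weeks *Pcolce* rose by 0.81 ± 0.12 in MRL/MpJ, 0.88 ± 0.12 in C57BL/6 and 0.92 ± 0.11 in STR/ort. In MRL/MpJ at that time *Pcolce* and *P4ha3* were the only members called.

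The carboxy-propeptidase *Bmp1* (chr14:70474555-70520716, minus strand), which its enhancer *Pcolce* serves, was called in C57BL/6 at 1-week (0.75 ± 0.14) and in STR/ort at 1-week (0.62 ± 0.14) and 2-weeks (0.77 ± 0.08). The STR/ort call at 1-week was lost with 1 RUVg factor (0.52) and without any of 4 single libraries, injured replicates 1 and 2 and contralateral replicates 3 and 4 (0.50 to 0.57). In STR/ort at 2-weeks its injured joints had 229, 211, 191, 214 and 234 CPM and its contralateral joints 116, 123, 127, 140 and 129 CPM, with no overlap. *Adamts2* (chr11:50602085-50807573, plus strand) was not called in any injury comparison, with log2 fold changes from -0.20 to 0.54. Its largest value, in STR/ort at 2-weeks (0.54 ± 0.08, adjusted p = 7.99e-06), came from 68.9 ± 3.46 CPM in contralateral and 99.8 ± 8.58 CPM in injured joints, which did not overlap. In C57BL/6 at 1-week *Adamts2* was called when scaled by the housekeeping genes (0.60), and without injured replicate 4 or contralateral replicate 5 (0.59 and 0.62), and in STR/ort at 2-weeks without injured replicate 3 (0.59). The fold changes of *Bmp1* and *Adamts2* were not compared by a test.

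The difference in response between strains was tested directly, as the interaction of strain and injury at each time. At 1-day the response of 5 of the 10 genes was smaller in STR/ort than in C57BL/6, against 2.48% of all genes. The differences in log2 fold change were -1.94 ± 0.31 for *P4ha3* (adjusted p = 0.000171), -0.96 ± 0.17 for *Pcolce* (adjusted p = 0.000478), -0.86 ± 0.18 for *P4ha2* (adjusted p = 0.00334), -0.72 ± 0.16 for *Plod1* (adjusted p = 0.0055) and -0.65 ± 0.17 for *Serpinh1* (adjusted p = 0.0208). All 10 differences were negative, with a median of -0.57 against -0.0031 over all genes. Contralateral STR/ort replicate 2 at 1-day was the highest contralateral library in 9 of the 10 members, and without it 3 of the 5 calls were kept. The *Serpinh1* call was also lost without injured C57BL/6 replicate 4 (-0.55). In the same interaction, 4 of 6 macrophage markers and 3 of 6 fibroblast markers were also called lower, with 4 of 9 fibrillar procollagens; macrophage markers in injured C57BL/6 joints rose in 3 of 6 cases at 1-day. Their part in the difference of the members was not tested.

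At 2-weeks, *Plod2* rose more in STR/ort than in MRL/MpJ, by 0.88 ± 0.19 on the log2 scale (adjusted p = 0.0256), against 0.433% of all genes. This call did not hold with edgeR's filterByExpr filter (0.82, adjusted p = 0.0532) or without any of 5 single libraries, injured MRL/MpJ replicate 3, contralateral MRL/MpJ replicates 1 and 4, injured STR/ort replicate 5 and contralateral STR/ort replicate 1. In the other 7 interactions edgeR as set out above called 0 of 10 genes. For C57BL/6 against MRL/MpJ, genes with an unadjusted p under 0.05 numbered 3 at 1-day, 1 at 1-week and 4 at 2-weeks (0.283%, 0% and 0% of all genes were called higher). For STR/ort against MRL/MpJ they numbered 2 at 1-day and 4 at 1-week (0.139% called lower and 0.364% called higher), and for STR/ort against C57BL/6 they numbered 1 at 1-week and 2 at 2-weeks (0.352% called lower and 0.0347% called higher). DESeq2 called 1 gene in each of the 1-day interactions with MRL/MpJ, *P4ha3* for C57BL/6 (1.30) and *Pcolce* for STR/ort (-0.75), and 0 in the other 5. For C57BL/6, *P4ha3* was also called when these groups were fitted alone (1.30), and with 2 RUVg factors (1.35) together with *P4ha2* (0.72). For STR/ort, *Pcolce* was also called with 1 or 2 RUVg factors (-0.75 and -0.71). Leaving out 1 library gave up to 3 calls for C57BL/6 against MRL/MpJ at 1-day (3 without injured C57BL/6 replicate 2, and 1 without contralateral C57BL/6 replicate 1 or contralateral STR/ort replicate 2). It gave 1 call for STR/ort against MRL/MpJ at 1-day without injured MRL/MpJ replicate 3, contralateral C57BL/6 replicate 1 or 3, injured STR/ort replicate 5 or contralateral STR/ort replicate 1, and 1 at 1-week without contralateral STR/ort replicate 3.

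The injured joints of 1-day and 1-week were compared within each strain, and whether the change between these times differed between strains was not tested. In injured STR/ort joints all 10 genes were higher at 1-week than at 1-day, against 9.02% of all genes, with log2 fold changes from 0.74 ± 0.13 for *Fkbp10* to 2.20 ± 0.20 for *P4ha3*, and the libraries of the 2 times overlapped for none of them. The share of all genes without such overlap was not counted. In injured MRL/MpJ joints *P4ha2* (0.63 ± 0.15) and *P4ha3* (1.43 ± 0.22) were called, against 2.26% of all genes. In injured C57BL/6 joints no gene was called (1.73% of all genes were called higher and DESeq2 called 0 members), and 5 had an unadjusted p under 0.05. In C57BL/6, 3 values had an adjusted p under 0.05 at less than 1.5-fold and were negative, *Serpinh1* (-0.47 ± 0.15), *Fkbp10* (-0.45 ± 0.13) and *Pcolce* (-0.37 ± 0.13). The injury response itself, injured against contralateral, was larger at 1-week than at 1-day for 7 genes in STR/ort (4.76% of all genes), from 0.61 ± 0.17 for *Bmp1* to 1.67 ± 0.30 for *P4ha3*. It was larger for *P4ha3* in MRL/MpJ (1.82 ± 0.41, 0.971% of all genes) and for *Plod2* in C57BL/6 (0.79 ± 0.21, 0.907%). Leaving out the libraries with 1 replicate number in every group gave a STR/ort count of 4 without number 2, ended the MRL/MpJ call without number 4 and ended the C57BL/6 call without number 1, 2 or 5. For injured joints it ended the STR/ort call of *Fkbp10* without number 1 (0.58) and the MRL/MpJ call of *P4ha2* without number 3 (0.42), and added *Pcolce* in MRL/MpJ without number 2 (0.59) and *Serpinh1* in C57BL/6 without number 5 (-0.59).

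The uninjured contralateral joints also changed, in opposite directions in STR/ort and C57BL/6. They are the same libraries that serve as controls of the injury comparisons, so both sets of values share them. At 1-week, 9 of the 10 genes, all but *Plod1*, were higher in contralateral STR/ort joints than in 0-day STR/ort joints, against 5.37% of all genes. *Plod2* had 131, 130, 152 and 110 CPM at 0-day and 336, 257, 196 and 334 CPM at 1-week (1.09 ± 0.16, adjusted p = 3.75e-07), and *Pcolce* had 130, 109, 119 and 108 CPM at 0-day and 281, 271, 149 and 227 CPM at 1-week (0.97 ± 0.15, adjusted p = 3.52e-07). Neither gene's groups overlapped, and contralateral replicate 3 was the lowest 1-week library of both. In contralateral C57BL/6 joints at 1-week, 7 of the 10 genes were lower than at 0-day, against 4.84% of all genes called lower, with *Pcolce* (-1.02 ± 0.14), *Fkbp10* (-0.98 ± 0.15) and *Bmp1* (-0.85 ± 0.12) at the largest values. *Pcolce* had 132, 121, 119 and 159 CPM at 0-day and 60.4, 62.4, 60.5, 71.5 and 80.9 CPM at 1-week, with no overlap. Leaving out the libraries with 1 replicate number ended the 1-week calls of *P4ha1* (0.46) and *Fkbp10* (0.48) in STR/ort without number 1, added *Plod1* in STR/ort without number 3 (0.66), and ended the calls of *Plod2* in C57BL/6 without number 4 (-0.58), and of *P4ha3* in C57BL/6 without number 1, 2, 4 or 5 (-0.85 to -0.63). In STR/ort at 1-week *P4ha1* and *Fkbp10* were also not called when scaled by the housekeeping genes (0.56 and 0.58), nor *Fkbp10* with 1 RUVg factor (0.52, adjusted p = 0.0693), while *Plod1* was called with 1 RUVg factor (0.68). In MRL/MpJ no gene was called at 1-day or 1-week (0.0404% and 0% of all genes were called higher), with 2 and 0 unadjusted p under 0.05 and 0 calls by DESeq2. At 1-day, 3 genes were higher in STR/ort (*P4ha3*, *Fkbp10* and *Pcolce*, 2.58% of all genes) and 0 in C57BL/6 (0.0116%, with 4 unadjusted p under 0.05, all of negative values, and 0 calls by DESeq2). Without the libraries numbered 2 the 1-day STR/ort count was 0, and without those numbered 4 it was 1. The 1-day call of *Fkbp10* was also lost with DESeq2 or RLE size factors (0.58 with either), when scaled by the housekeeping genes (0.55) and with 1 RUVg factor (0.47, adjusted p = 0.235), and that of *Pcolce* when scaled by the housekeeping genes (0.57).

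**Figure D3:**
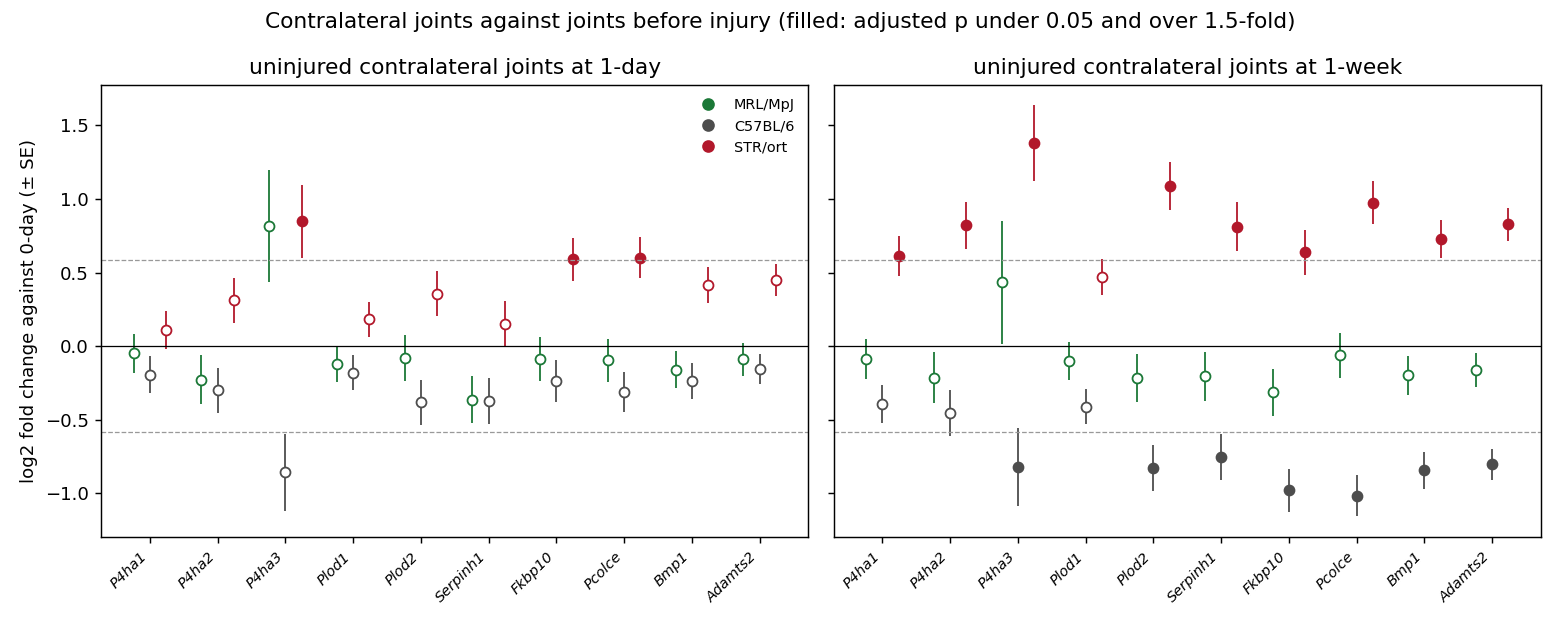
Log2 fold change ± SE of uninjured contralateral joints against 0-day joints of the same strain for the 10 genes at 1-day and 1-week; filled points were called and dashed lines mark 1.5-fold. At 1-week the STR/ort points lie above 0 and the C57BL/6 points below 0, with the MRL/MpJ points between -0.31 and 0.43.

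Marker genes of other cell types moved in the same comparisons. In contralateral STR/ort joints at 1-week, 6 of 6 fibroblast markers were higher than at 0-day, with summed levels of 3076 to 5416 against 2222 to 2982 CPM, 4 of 6 macrophage markers were higher, and 8 of 8 fast muscle markers were lower, with 27932 to 53225 against 75097 to 85374 CPM. In contralateral C57BL/6 joints at 1-week, 6 of 6 fibroblast markers were lower (1255 to 1532 against 2262 to 3212 CPM), as were 7 of 7 chondrocyte markers, 7 of 7 osteoblast and osteocyte markers and 8 of 9 fibrillar procollagens (*Col2a1* is on both the chondrocyte and the procollagen list), while 6 of 6 slow muscle markers were higher (292 to 828 against 82.5 to 141 CPM). In MRL/MpJ none of these lists had a gene called in the contralateral joints against 0-day. The part of these cell types in the changes of the contralateral joints was not tested. None of the markers named had 0 counts in any library.

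Strains were also compared directly within injured and within contralateral joints. At 1-week all 10 genes were higher in injured STR/ort joints than in injured C57BL/6 joints (13.3% of all genes) and injured MRL/MpJ joints (15%), with medians of 1.17 and 1.60 on the log2 scale against 0.0051 and -0.013 over all genes. The differences from MRL/MpJ ran from 0.89 ± 0.12 for *Adamts2* to 2.26 ± 0.18 for *P4ha3*. The contralateral joints of the same mice showed nearly as many, 9 of 10 genes against C57BL/6 (13.1%) and 10 of 10 against MRL/MpJ (13.7%), and libraries did not overlap for any of the 10 genes in these 4 comparisons. How many of all genes had no overlap there was not counted. C57BL/6 exceeded MRL/MpJ in 1 gene in injured joints, *Serpinh1* (0.66 ± 0.17, 4.78% of all genes), and in 1 gene in contralateral joints, *P4ha3* (0.93 ± 0.28, 4.53%). At the same time point, 8 of 8 fast muscle markers were lower in injured STR/ort joints than in those of either other strain, with summed levels of 13658 to 29986 CPM against 27546 to 53790 in C57BL/6 and 43380 to 72379 in MRL/MpJ. Fibroblast markers summed to 5646 to 6525 CPM in injured STR/ort joints against 2385 to 2858 in C57BL/6 and 2231 to 2736 in MRL/MpJ. With TMM factors computed without the muscle marker genes, the counts of members called between strains at 1-week were the same as with all genes. With RUVg the count between contralateral STR/ort and MRL/MpJ joints was 7 with 1 factor and 5 with 2. In injured joints the *Adamts2* difference was not called with RUVg against MRL/MpJ (0.40 with 1 factor and 0.44 with 2, adjusted p = 0.137 and 0.289) or against C57BL/6 (0.40 and 0.42), and that of *Bmp1* against C57BL/6 was not called with 1 factor (0.49). The *Plod1* difference between injured STR/ort and C57BL/6 joints was not called when scaled by the housekeeping genes (0.54) or without injured STR/ort replicate 1 (0.58). The 2 calls between C57BL/6 and MRL/MpJ each rested on single libraries: *Serpinh1* was lost without injured C57BL/6 replicate 5 and *P4ha3* without contralateral MRL/MpJ replicate 1 or contralateral C57BL/6 replicate 3, while 2 genes were called without injured MRL/MpJ replicate 3 and, in contralateral joints, without MRL/MpJ replicate 4.

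At 1-day, 8 genes were higher in injured C57BL/6 than in injured MRL/MpJ joints (10% of all genes) and 6 in STR/ort than in MRL/MpJ joints (10.2%), and only *Plod1* differed between STR/ort and C57BL/6, being lower in STR/ort by a log2 difference of -0.66 ± 0.11 (7.48% of all genes called lower). In contralateral joints at 1-day, 3 genes were higher in C57BL/6 than in MRL/MpJ (9%), 8 in STR/ort than in MRL/MpJ (13.1%) and 2 in STR/ort than in C57BL/6 (5.73%), *P4ha3* (1.61 ± 0.24) and *Pcolce* (0.73 ± 0.12). *P4ha3* thus differed between STR/ort and C57BL/6 in the contralateral and not in the injured joints at that time, at 22.9 ± 9.88 against 7.48 ± 1.89 CPM in contralateral and 35.0 ± 8.69 against 43.3 ± 11.6 CPM in injured joints. At 2-weeks all 10 genes were higher in injured STR/ort than in injured MRL/MpJ joints (11%), 6 in C57BL/6 than in MRL/MpJ (7.31%) and 3 in STR/ort than in C57BL/6 (5.4%), *P4ha3*, *Plod2* and *Pcolce*. Of the 6, *Plod2* was lost with 1 or 2 RUVg factors (0.52 and 0.55) and without any of 4 single libraries, injured MRL/MpJ replicates 3 and 4 and injured C57BL/6 replicates 1 and 4 (0.53 to 0.58), and *P4ha3* was lost when these groups were fitted alone (0.79, adjusted p = 0.051). In contralateral joints at 2-weeks the counts were 5 (7.97%), 3 (6.01%) and 2 (4.92%), and *P4ha3*, among the 3, was lost without any of 5 single libraries, MRL/MpJ replicates 3 to 5 and C57BL/6 replicates 2 and 5 (0.97 to 1.01). The count of 3 between STR/ort and C57BL/6 fell to 1 without injured C57BL/6 replicate 2 or 3, or without injured STR/ort replicate 5, and the contralateral count of 2 fell to 1 without C57BL/6 replicate 2 or STR/ort replicate 4. At 1-day the *Plod1* call was lost without injured C57BL/6 replicate 4, and the contralateral count of 3 rose to 5 without MRL/MpJ replicate 5 or C57BL/6 replicate 3 or 5. Scaled by the housekeeping genes, the 1-day count of 6 between injured STR/ort and MRL/MpJ joints was 3, without *P4ha1* (0.42), *P4ha2* (0.45) and *Fkbp10* (0.49), and with RUVg the *Plod1* difference was not called (-0.45 with 1 factor). Among the 8 genes between injured C57BL/6 and MRL/MpJ joints, *P4ha1* was lost with that scaling (0.56), and of the 8 between contralateral STR/ort and MRL/MpJ joints, *P4ha1* (0.56) and *Adamts2* (0.54) were. Over the 3 times post-injury, 26 of 30 values for injured joints and 23 of 30 for contralateral joints were called between STR/ort and MRL/MpJ, all of them higher in STR/ort.

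**Figure D4:**
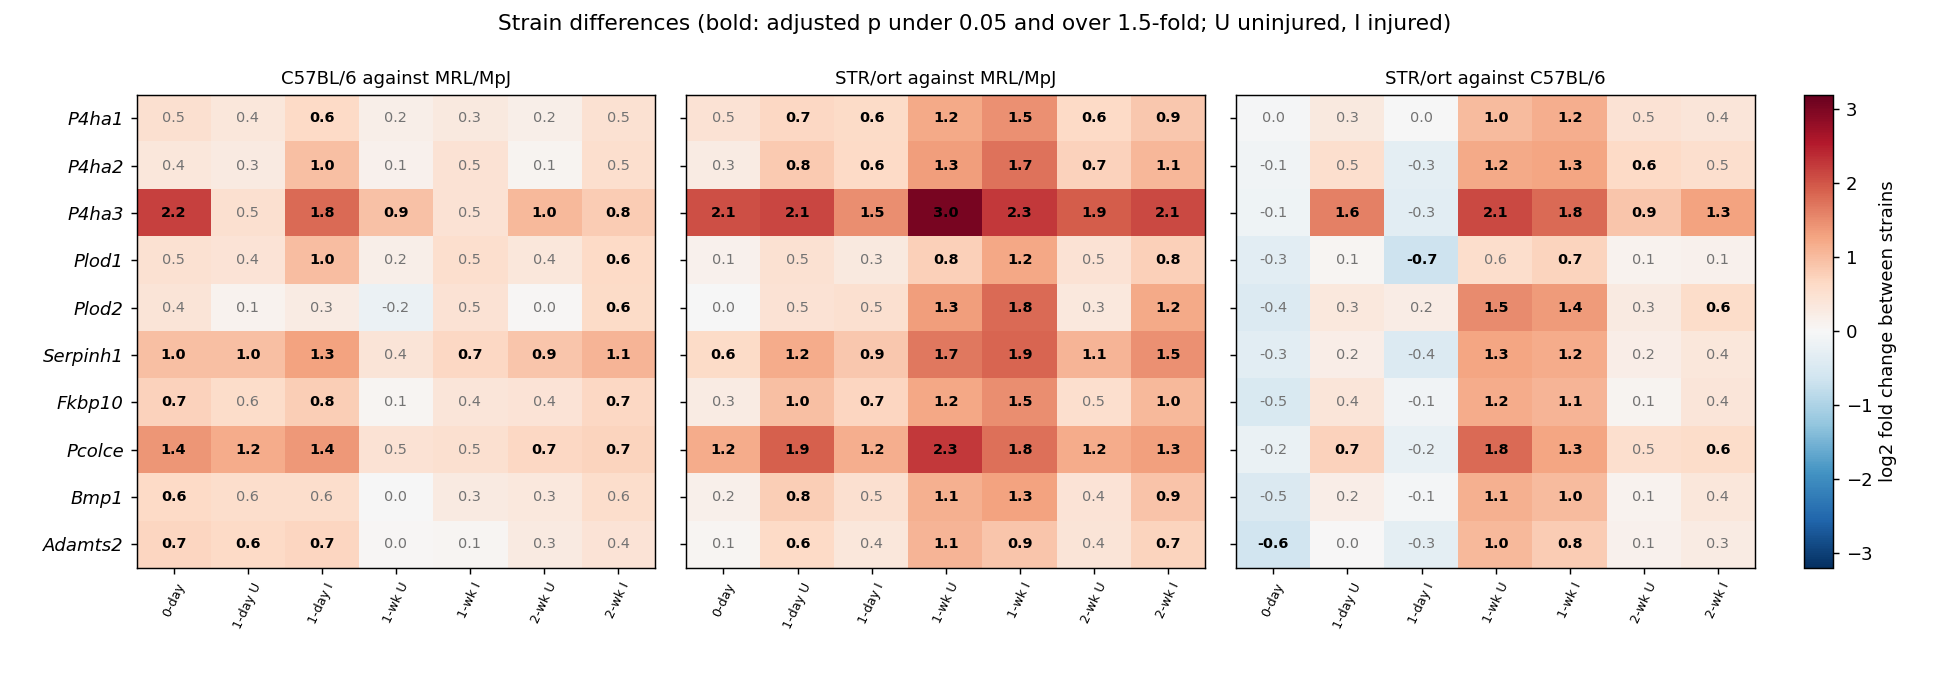
Log2 differences between strains for the 10 genes at 0-day and in uninjured (U) and injured (I) joints at each time, in 3 panels for C57BL/6 against MRL/MpJ, STR/ort against MRL/MpJ and STR/ort against C57BL/6; bold numbers were called. In the STR/ort against MRL/MpJ panel all 10 values are called in both 1-week columns, and the P4ha3, Serpinh1 and Pcolce rows are called in every column.

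The fibrillar procollagens, the substrates of these proteins, were up-regulated alongside them, with 2, 4 and 0 of 9 called at 1-day in MRL/MpJ, C57BL/6 and STR/ort, 4, 5 and 6 at 1-week and 3, 4 and 6 at 2-weeks. *Col3a1*, the chain of type III collagen, rose most, by 2.61 ± 0.23 in MRL/MpJ, 2.43 ± 0.21 in C57BL/6 and 1.77 ± 0.22 in STR/ort at 1-week, in the same strain order as *P4ha3*. The type V chains *Col5a1* (1.39 ± 0.21, 1.87 ± 0.20 and 1.74 ± 0.21), *Col5a2* (1.01 ± 0.16, 1.45 ± 0.15 and 1.37 ± 0.16) and *Col5a3* (1.39 ± 0.23, 1.41 ± 0.21 and 1.25 ± 0.21) were also called in all 3 strains at that time. *Col1a1*, the main chain of bone and ligament collagen, was called at 1-week in C57BL/6 (0.63 ± 0.20) and STR/ort (0.72 ± 0.21). The median log2 fold change of the 9 chains at 1-week was 0.29 in MRL/MpJ, 0.63 in C57BL/6 and 0.72 in STR/ort, and that of the 10 members was 0.58, 0.90 and 0.79, against -0.0056, -0.012 and -0.033 over all genes.

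Of 22 other genes of collagen modification and secretion that were in the table, 0, 6 and 1 were up-regulated at 1-day in MRL/MpJ, C57BL/6 and STR/ort, 3, 9 and 12 at 1-week and 0, 4 and 9 at 2-weeks. *Tll1*, a propeptidase related to *Bmp1*, had the largest called value at 1-day (0.83 ± 0.19 in C57BL/6) and at 1-week (1.33 ± 0.24 in STR/ort), and was called in 6 comparisons, none of them in MRL/MpJ. At 2-weeks the largest was *P3h4* in STR/ort (1.08 ± 0.10), a partner of the prolyl 3-hydroxylase and lysyl hydroxylase complexes. The smallest called values were those of *Sec24d*, a coat protein of procollagen export, at 1-day (0.61 ± 0.11 in C57BL/6), of *Crtap*, a subunit of the prolyl 3-hydroxylase complex, at 1-week (0.59 ± 0.13 in STR/ort), and of *Sparc*, a collagen-binding matrix protein, at 2-weeks (0.63 ± 0.10 in STR/ort). *Colgalt2*, a collagen galactosyltransferase, fell by 0.63 ± 0.16 on the log2 scale in STR/ort at 1-week and was the only gene of this list called down-regulated by injury. *P4hb*, the beta subunit shared by the P4ha enzymes and chosen for naming after its values were seen, rose at 1-day in C57BL/6 (0.71 ± 0.07) and at 1-week in STR/ort (0.65 ± 0.11).

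General folding genes of the endoplasmic reticulum and hypoxia-inducible genes were examined as comparison lists. Of 13 folding genes, 3 rose after injury in C57BL/6 at 1-day, *Hsp90b1* (0.59 ± 0.09), *Pdia4* (0.65 ± 0.09) and *Pdia6* (0.61 ± 0.08), and 0 were called in the other 8 comparisons. Between strains at 1-week, however, 11 of 13 were higher in injured STR/ort than in injured C57BL/6 joints and 10 of 13 than in injured MRL/MpJ joints, as were 9 and 10 of 13 in contralateral joints. Of 12 hypoxia-inducible genes, at most 1 was called in either direction in any injury comparison, and the glucose transporter *Slc2a1* and the peptide hormone *Adm* gave 6 of the 8 calls. *P4ha1*, which is itself known as a hypoxia-inducible gene, was not called in any of them. *P4ha2* and *Serpinh1*, whose promoter windows also hold the hypoxia core, were called in 6 and 4 injury comparisons. The part of hypoxia in the changes of the members was not tested.

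**Figure D5:**
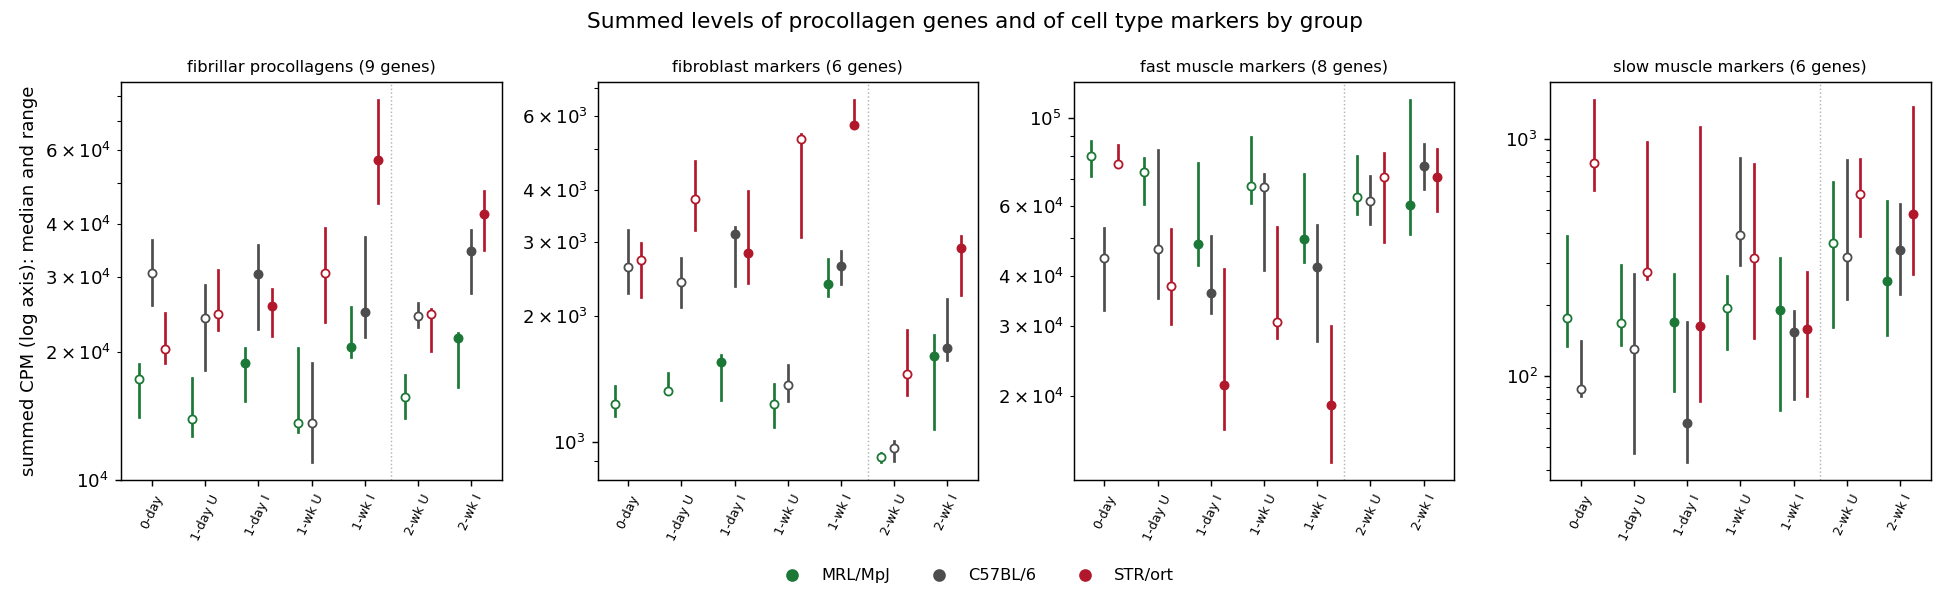
Summed CPM of 4 gene lists, fibrillar procollagens (9 genes), fibroblast markers (6), fast muscle markers (8) and slow muscle markers (6), shown as the median and range over the libraries of each group on a log axis. The medians of procollagens and fibroblast markers are highest, and that of fast muscle markers lowest, in the injured STR/ort joints at 1-week among the batch 1 groups.

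After injury, fibroblast markers were called up-regulated in 6 of 6 cases at 1-week in MRL/MpJ and C57BL/6 and in 3 of 6 in STR/ort, and in 5 of 6 in each strain at 2-weeks. At 1-day, 1, 3 and 1 of 6 were called up-regulated in MRL/MpJ, C57BL/6 and STR/ort, and 1 of 6 was called down-regulated in STR/ort. Fast muscle markers were called down-regulated in 5 of 8 cases in STR/ort at 1-day and 7 of 8 at 1-week, and in C57BL/6 in 1 of 8 at 1-day, when 1 other rose, and 2 of 8 at 1-week. Slow muscle markers were called down-regulated at 1-week in 6 of 6 cases in C57BL/6 (median log2 fold change -1.75) and 4 of 6 in STR/ort (median -1.49). Osteoblast and osteocyte markers were called down-regulated at 1-week in 4 of 7 cases in STR/ort and 1 of 7 in C57BL/6. Fat markers were called down-regulated in 3 of 5 cases in STR/ort at 1-day, and in 1 of 5 at 1-week in STR/ort and in C57BL/6. Chondrocyte markers were called down-regulated at 1-day in 1 of 7 cases in C57BL/6 and 2 of 7 in STR/ort, and up-regulated in 1, 3 and 2 of 7 in MRL/MpJ, C57BL/6 and STR/ort at 1-week, where 1 fell in STR/ort, and in 1, 2 and 4 of 7 at 2-weeks. Neutrophil markers were called down-regulated in 2 of 6 cases in STR/ort at 1-week. At 2-weeks no marker of muscle, bone or fat was called in any strain. The part of these cell types in the injury response of the members was not tested.

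Genes with a response most like that of a member were named from the 14417 genes with a mean of at least 1 CPM, by the smallest root mean square difference over the 9 log2 fold changes of injury. The nearest gene was *Neo1* for *P4ha1* (0.046), *Maged2* for *P4ha2* (0.11), *6030419C18Rik* for *Plod1* (0.078), *Lrig3* for *Plod2* (0.13), *Maged1* for *Serpinh1* (0.078), *Ikbip* for *Fkbp10* (0.081), *Tbx18* for *Pcolce* (0.12), *Snhg18* for *Bmp1* (0.072) and *Hsd3b7* for *Adamts2* (0.069). These are distances between genes measured in the same libraries over 9 comparisons, given as a description. *P4ha3* lay farthest from the other members, with *Pcolce* nearest to it at 1.44. *Plod2* was the member with the fewest other genes, 4, closer to it than its nearest member, *Fkbp10*.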

How the data were processed

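The authors' poly(A) libraries from total RNA of whole joints were aligned to mm10 with TopHat2 2.0.11 and counted on RefSeq genes with featureCounts, per the study's methods and the submitters' processing notes. The deposited table holds raw counts of reads per gene; of its 17313 rows, 3 repeated rows were dropped, 24 bear date-like names and were kept, and no filter removed a gene (all had at least 2 counts in 5 libraries). Whether the counting used strand is not given in the sources used here. No 2 of the 190 pairs of libraries within groups were identical.

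Groups, batches and replicate numbers were taken from the labels. The members and gene lists were chosen with earlier results of these data known, and other genes are named where they had the largest or smallest called change of the collagen modification list at a time, went against its direction, or lay nearest to a member, while *P4hb* and single procollagen, folding and hypoxia genes were named after their values were seen. Where no nearest gene is given for a member, it is not reported here. Counts were scaled by TMM and tested with edgeR 4.0.16 in R 4.3.3 (glmQLFit, glmQLFTest), 1 fit of group means per time (0-day, 1-day, 1-week, 2-weeks) and 1 fit of the 70 batch 1 libraries for contrasts across times. Interactions are differences of injury contrasts between strains. The scripts were tested on simulated data. Beyond the animal numbers in the 2-weeks labels, nothing in the labels says that libraries come from separate animals, so p-values measure the spread between these libraries.

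Alternatives were DESeq2 1.42.0, RLE size factors, scaling by 25 housekeeping genes, 1 or 2 RUVg factors, TMM without muscle markers, filterByExpr, no filter, fits of the compared groups only, the replicate block, calls at adjusted p alone and leaving out each library. For contrasts across times, all libraries with the same replicate number were left out together instead. Replicate numbers pair the 2-weeks libraries, where the labels number the animals (correlations of deviations of same-numbered libraries from -0.16 to 0.26). At 1-day and 1-week the labels do not say whether numbers pair the libraries. The correlations there ran from -0.13 to 0.27, with 0.10 to 0.23 in STR/ort at 1-week, and cannot settle it, because those of the paired 2-weeks libraries span a similar range. Depth gives a counting error of the CPM that is included in the tests. Gene positions are RefSeq on GRCm38, strands and exon lengths are GENCODE M21, and promoters are RefSeq, GRCm38.p6.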

Additional observations from a re-analysis of the deposited data

Results flagged for a closer look

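Of 210 tests of a group of 4 or 5 libraries (10 genes in 21 groups), 10 found 1 library farther from the rest than Dixon's 95% critical value, where chance flags about 1 in 20. The high libraries were contralateral STR/ort replicate 2 at 1-day in *P4ha2* (63.0 CPM, next 44.5), contralateral C57BL/6 replicate 3 at 1-week in *P4ha3* (11.8, next 7.45), contralateral MRL/MpJ replicate 4 at 1-week in *Serpinh1* (199, next 144) and in *Pcolce* (62.8, next 45.8), and injured C57BL/6 replicate 5 at 1-week in *Fkbp10* (112, next 80.3). The low libraries were contralateral C57BL/6 replicate 2 at 2-weeks in *P4ha2* (21.7, next 26.2), contralateral STR/ort replicate 3 at 1-week in *P4ha3* (16.1, next 37.5), injured STR/ort replicate 3 at 1-day in *Plod2* (171, next 221), STR/ort replicate 4 at 0-day in *Serpinh1* (238, next 284) and injured MRL/MpJ replicate 3 at 2-weeks in *Pcolce* (68.7, next 113).

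The injury response differed between strains by the test of the interaction for 6 values. At 1-day it was smaller in STR/ort than in C57BL/6 by -1.94 for *P4ha3*, -0.96 for *Pcolce*, -0.86 for *P4ha2*, -0.72 for *Plod1* and -0.65 for *Serpinh1*, and at 2-weeks it was larger in STR/ort than in MRL/MpJ by 0.88 for *Plod2*.

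The response differed between 1-day and 1-week, larger at 1-week, for 9 values. They were 1.82 for *P4ha3* in MRL/MpJ, 0.79 for *Plod2* in C57BL/6, and in STR/ort 1.20 for *P4ha2*, 1.67 for *P4ha3*, 0.88 for *Plod1*, 0.72 for *Plod2*, 0.70 for *Fkbp10*, 0.75 for *Pcolce* and 0.61 for *Bmp1*.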

How the results depend on the processing

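With calls at adjusted p alone, without the fold threshold, counts of members called rose from 7 to 13 for the injury response at 1-day, from 14 to 24 for that at 2-weeks, from 1 to 2 for the interaction at 2-weeks, from 10 to 21 for strain differences at 0-day, from 13 to 23 and from 10 to 21 for those in contralateral joints at 1-day and 2-weeks, and from 19 to 29 for those in injured joints at 2-weeks. With 2 RUVg factors the count was 4 at 0-day and 8 for the interaction at 1-day, and between C57BL/6 and MRL/MpJ at 0-day the differences of *Serpinh1* (-0.081, adjusted p = 0.92) and *Plod2* (-0.94, adjusted p = 0.021) were negative. With filterByExpr the interaction at 2-weeks had 0 calls. Leaving out 1 library gave 4 to 8 calls for the interaction at 1-day (5 with all libraries), 0 to 1 at 1-week (0 with all libraries) and 0 to 1 at 2-weeks (1 with all libraries). Leaving out all libraries with 1 replicate number gave 5 to 9 for the change of response from 1-day to 1-week (9 with all libraries). The cause of these changes was not tested. Counts of the injury response at 1-week (20), of the contralateral joints against 0-day (19), of the injured joints between times (12) and of the strain differences in injured joints at 1-day (15) and 1-week (21) and in contralateral joints at 1-week (20) stayed within 1.5 times under every alternative run.

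The replicate block changed no call of the injury responses at 2-weeks, where the numbers pair the libraries, or of STR/ort at 1-week. At 1-day and 1-week it is not known whether the numbers pair libraries. At 1-day the block added *P4ha3* in STR/ort (0.65, adjusted p = 0.037). It also added the smaller *Pcolce* response of STR/ort against MRL/MpJ at 1-day (-0.75, adjusted p = 0.0129). Scaling by housekeeping genes moved the median of all genes by more than 0.1 on the log2 scale in 10 of 51 contrasts (-0.18 to 0.15). Over single members and contrasts, DESeq2 kept 506 of 510 calls or non-calls, RLE 508, scaling by housekeeping genes 490, 1 RUVg factor 486 and no filter 510. RUVg with 2 factors kept 354 calls or non-calls, lost 21 calls, gained 13 and reversed 2 values in the fits where it was run, and calls at adjusted p alone kept 421 and gained 89. Within single contrasts, 1 or 2 RUVg factors gave 2 calls in place of 1 for the injury response of MRL/MpJ at 1-day and 1 in place of 0 for that of STR/ort. With 1 RUVg factor there were 5 in place of 3 for C57BL/6 against MRL/MpJ in contralateral joints at 1-day. With 2 RUVg factors there were 0 in place of 1 for the same strains in contralateral joints at 1-week, and 1 in place of 2 for STR/ort against C57BL/6 in contralateral joints at 2-weeks. Scaling by housekeeping genes gave 1 in place of 3 for contralateral STR/ort joints at 1-day against 0-day, and 2 in place of 1 for the change of the C57BL/6 response from 1-day to 1-week.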
